A study of Drosophila melanogaster with 9 samples.

Results

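The transcriptome described here is that of unmanipulated control embryos. It was read from 3 RNA-seq libraries of whole *Drosophila melanogaster* embryos labelled w1118, out of 9 libraries in the series, and these 3 were chosen because they are the control genotype. w1118 is a laboratory strain with a mutation in the X-linked eye pigment gene *white*, labelled wild type in the series, and the embryos received no treatment and carried no transgene named in the labels. Embryos were collected at 5 to 16 h after egg laying, a window that opens after gastrulation and closes when muscle, gut, trachea and nervous system are differentiating. The protocol calls the 3 libraries biological replicates, each made from total RNA of many whole embryos of mixed age, and the study's methods can be read as taking all 3 from a single collection, in which case their spread may be technical. The other 6 libraries are from *Kah* mutants and were not compared.

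Reads on a gene rise with its length as well as with its abundance. Each value was therefore divided by the length of the gene's exons and scaled to a sum of 1000000 in each library, which gives parts per 1000000 (ppm), an estimate of the share of transcripts. A gene was called detected at a mean of at least 1 ppm over the 3 libraries and absent when it had no read in any of them. Values are given as mean ± SD (n = 3 libraries) or for replicates 1, 2 and 3 in that order.

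As background, an embryo at these ages has used up most of the maternal RNA laid down in the egg and lives on RNA from its own genome. Housekeeping transcripts, those for ribosomes, mitochondria and the cytoskeleton, are abundant in every cell, while transcripts of differentiated tissues such as muscle contractile proteins, cuticle proteins and tracheal matrix proteins accumulate late in embryogenesis. The genes that pattern the embryo, such as the Hox and segment polarity genes, encode regulators that act at low transcript number in few cells.

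The libraries held 20036762, 18848550 and 18587477 reads on genes. At this depth 13471, 13530 and 13554 genes had a read, and 3 reads correspond to between 0.150 and 0.161 reads per 1000000, which is the level that a count of 0 still allows. Replicate 1 stood apart from the others. Its reads per gene differed from those of replicates 2 and 3 with a chi-square per degree of freedom of 55.7 and 46.4, against 7.30 between replicates 2 and 3, a measure against counting error only that grows with depth. No pair agreed within that error, and all 3 were counted separately. Rank correlations of ppm over the 10844 detected genes were 0.989, 0.984 and 0.993, a description over genes, which are not independent replicates. What sets replicate 1 apart was not tested. The mitochondrial share, the cuticle share and the count of genes that differ between libraries are given below also without it. Levels of single genes are given per library or as a mean that includes it.

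Of 14631 genes listed, 10844 (74.1%) were detected, 3478 had a read but stayed under 1 ppm, and 309 were absent. A level of 1 ppm was reached in all 3 libraries by 10402 genes. The number at or above 10 ppm was 7544, at or above 100 ppm 1180, and at or above 1000 ppm 144. Those 144 genes carried 52.9% of all ppm, and 79 of them encoded cytosolic ribosomal proteins and 10 lay in the mitochondrial genome. The abundance was thus concentrated in few genes: 95, 139 and 128 genes were enough for 50% of the ppm of each library, and the 1000 most abundant genes held 76.4%, 73.8% and 74.5%.

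**Figure D1:**
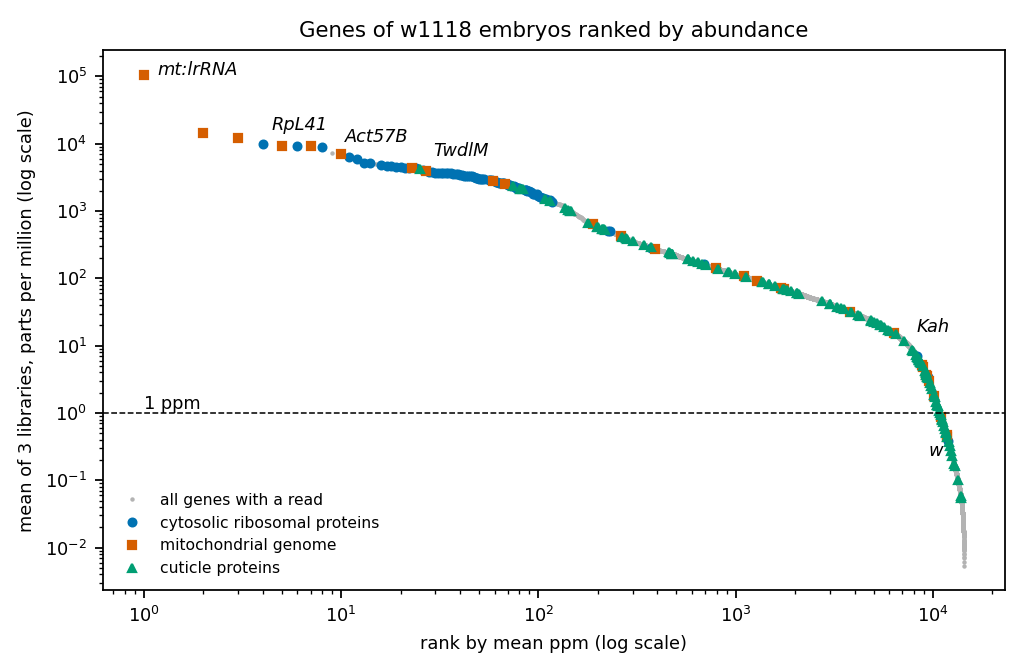
Mean ppm of the 3 libraries (vertical, log scale) against the rank of the gene (horizontal, log scale) for every gene with a read, with ribosomal protein, mitochondrial and cuticle genes marked. *mt:lrRNA* stands alone at 106103 ppm, 79 of the 144 genes at or above 1000 ppm encode ribosomal proteins, and 7544 genes lie at or above 10 ppm.

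Protein-coding genes made up most of the listed genes and most of the RNA. Of 12631 protein-coding genes 10209 (80.8%) were detected, and they held 85.4%, 90.8% and 89.7% of the ppm. The next class by abundance was rRNA, with 13 of 30 genes detected and 10.7% ± 2.91 of the ppm, of which the 28 nuclear genes held 0.0797% ± 0.0113. The class labelled lincRNA, for long intergenic noncoding RNAs, also includes genes named as antisense RNAs. It had 1470 genes but only 373 detected (25.4%), and held 0.378%, 0.418% and 0.431%. The other classes were present in traces. Detected were 135 of 206 snoRNA genes (0.0913% ± 0.0046 of the ppm), 45 of 137 pseudogenes (0.0524% ± 0.0024), 32 of 81 tRNA genes (0.0660% ± 0.0083), 30 of 58 microRNA hairpins (0.0422% ± 0.0042) and 7 of 18 snRNA genes (0.00559% ± 0.00023). When the mitochondrial genome and the rRNA genes were left out of the total, protein-coding genes held 99.3% ± 0.023.

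The mitochondrial genome differed widely between the libraries. Its 30 listed genes held 22.0%, 14.1% and 16.0% of the ppm, highest in replicate 1 and with a mean of 15.1% without it. *mt:lrRNA*, the large ribosomal RNA of the mitochondrion, was the most abundant gene of all, at 139124, 84103 and 95083 ppm. *mt:srRNA*, the small ribosomal RNA encoded beside it, was at 181, 121 and 122 ppm. The ratio of large to small was 768, 693 and 782 within the 3 libraries, although both RNAs belong to the same ribosome.

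The mitochondrial genes for subunits of the respiratory chain also spread widely. Highest were the cytochrome c oxidase subunits *mt:CoIII* (15299, 12861 and 14410 ppm) and *mt:CoI* (13608, 10688 and 12553 ppm), ranked directly below *mt:lrRNA*. *mt:CoII* followed at 9350 ± 2222 ppm, *mt:Cyt-b* of complex III at 9167 ± 2186 and *mt:ATPase6* of the ATP synthase at 7045 ± 1701. The ranges of these 3 genes over the libraries overlap, but within every library they kept this order. Subunits of complex I were lower and went from *mt:ND3* (4393 ± 998 ppm), *mt:ND1* (3916 ± 702), *mt:ND5* (2750 ± 577) and *mt:ND4* (2551 ± 606) down to *mt:ND2* (650 ± 147), *mt:ND4L* (422 ± 126) and *mt:ND6* (107 ± 24.0). *mt:ATPase8*, of only 162 bases, was listed at 5.15 ± 1.26 ppm. Mitochondrial tRNA genes ranged from *mt:tRNA:Gly-TCC* at 275 ± 41.8 ppm to *mt:tRNA:Thr-TGT*, with no read.

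Cytosolic ribosomal proteins were the largest nuclear family listed, with little spread. The 87 listed genes held 26.1%, 26.4% and 26.3% of the ppm, with a median of 2859 ppm per gene, and 86 of them were detected. Without division by length they held 13.9%, and with the mitochondrial genome and rRNA left out of the total 31.8% ± 1.40. *RpL41*, which encodes the smallest ribosomal protein, led at 9630, 9849 and 10606 ppm, before *RpL27A* (10273, 8427 and 8952 ppm) and *RpLP2* of the ribosomal stalk (9881, 8299 and 8648 ppm). *RpL27A* exceeded *RpLP2* in every library, while the place of *RpL41* among them changed from library to library. *RpS27A*, made as a fusion with ubiquitin, was at 6038, 6029 and 6011 ppm. With the mitochondrial genome and rRNA left out of the total it was at 7744, 7026 and 7165 ppm, whereas *RpLP1*, another stalk protein, was at 5576, 5600 and 5561 ppm.

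Several ribosomal proteins are encoded by a pair of genes, and in 6 such pairs 1 copy prevailed. *RpS19a* was at 1803 ppm and *RpS19b* at 6.91 ± 1.17, a ratio of 259, 322 and 218 in the 3 libraries. *RpL37-1* exceeded *RpL37-2* (3.37 ± 0.32 ppm) 507-fold, 505-fold and 589-fold, and *RpS10b* exceeded *RpS10a* (3.49 ± 0.65 ppm) 664-fold, 476-fold and 531-fold. *RpS28a* had 1, 0 and 3 reads against 2345 ppm for *RpS28b*. The difference was smaller for *RpS15Aa* over *RpS15Ab* (13.0-fold, 16.5-fold and 17.1-fold) and for *RpS5a* over *RpS5b* (4.04-fold, 5.30-fold and 5.99-fold), whose minor copies were well detected at 162 ± 23.6 and 287 ± 36.5 ppm. Reads of near-identical copies can be split in counting, so the minor levels are uncertain.

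Among the 25 most abundant nuclear protein-coding genes 22 encoded ribosomal proteins, and only 3 did not. *Act57B*, an actin of larval muscle, was at 5864, 8416 and 7537 ppm, lowest in replicate 1. *Ef1alpha48D*, the elongation factor that brings tRNAs to the ribosome, was at 4581, 5199 and 4981 ppm. *TwdlM*, a Tweedle family protein of the cuticle, was at 2904, 5288 and 4294 ppm and varied most of the 25, with a coefficient of variation (CV) of 28.8%. In this group *RpL23A* shares 62.9% of its exon bases with 3 other annotated genes, and 7 of the 21 that could be matched to the annotation share some. Part of their reads could thus belong to a neighbour, or be missing from the count. Such sharing was found for 3691 of 10634 detected genes in the annotation (34.7%), among the genes named below also for *Cdk2* (43.9% of its exon bases), *ftz-f1* (29.4%), *Z600* (30.5%), *lncRNA:CR42491* (50.5%) and *mir-2a-2* (61.1%).

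Members detected in other housekeeping classes are to be read against the 80.8% of all protein-coding genes that were detected. Except for glycolysis these classes were drawn by gene name, so further copies of a gene count as members. All 72 mitochondrial ribosomal proteins were detected, at 0.544% ± 0.012 of the ppm and between 28.5 ppm for *mRpL21* and 151 ppm for *mRpL12*. Nuclear genes for oxidative phosphorylation held 2.22%, 2.42% and 2.43%, with 70 of 79 detected, led by *ATPsynbeta* (1300 ± 32.3 ppm), *ATPsynC* (1280 ± 163) and *Cyt-c-p* (1245 ± 120), while *ND-20L* was absent. *Cyt-c-d*, the second cytochrome c gene, was at 1.25, 2.28 and 0.983 ppm and shares 36.4% of its exon bases with another gene. Translation factors held 1.93% ± 0.081, with 45 of 51 detected, and after *Ef1alpha48D* came *eIF-5A* (2951 ± 84.0 ppm) and *eEF2* (1929 ± 135 ppm). Of 44 proteasome genes 34 were detected, a share of 77.3% and close to that of all protein-coding genes. They were led by *Rpn12* (132 ± 14.2 ppm), *Rpt6* (112 ± 12.3) and *Prosalpha7* (107 ± 8.41). The lowest members were *Prosalpha4T2*, *Prosbeta5R2* and *Prosbeta2R1*. *Prosbeta2R1*, a duplicate of a core subunit gene, was absent. The 12 glycolysis genes were all detected, with *Gapdh2* highest (486 ± 53.4 ppm) and *Hex-A* lowest (45.2 ± 5.17 ppm).

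**Figure D2:**
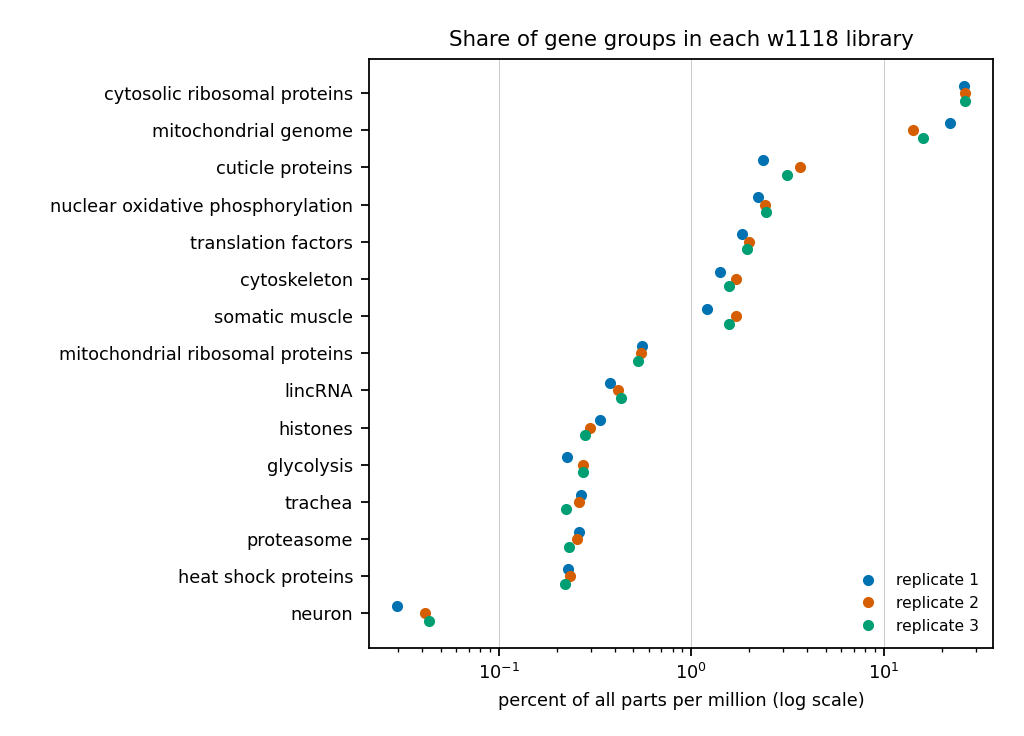
Percent of all ppm (horizontal, log scale) held by 15 gene groups, with 1 point for each of the 3 w1118 libraries. Cytosolic ribosomal proteins lie together at 26.1% to 26.4%, whereas the mitochondrial genome runs from 14.1% to 22.0% and cuticle proteins from 2.36% to 3.66%.

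Actin and tubulin genes formed a series in which the general and the muscle forms were high and the adult, egg and testis forms low. *Act57B* stood 4.14-fold, 5.26-fold and 4.58-fold above the general actin *Act5C* (1415, 1600 and 1647 ppm). The other general actin, *Act42A* (482 ± 23.1 ppm), and *Act87E* (470 ± 80.0 ppm) did not differ beyond their spread. *Act79B* was at 3.37 ± 0.90 ppm and *Act88F*, the flight muscle actin of the adult, at 0.160 ± 0.079. *alphaTub84B* was at 1939, 2030 and 1928 ppm and *betaTub56D* at 947, 978 and 896 ppm, against 1.27 ± 0.53 ppm for the egg form *alphaTub67C* and 1.72 ± 0.50 ppm for the testis form *betaTub85D*.

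Cuticle proteins held the largest share of ppm among the differentiation lists summed here, which differ in size. Without division by length the 8 genes of the somatic muscle list held more, 2.25% against 1.52% for the cuticle genes. Of 120 listed cuticle genes 100 were detected (83.3%, against 80.8% of all protein-coding genes). The class held 2.36%, 3.66% and 3.14% of the ppm, or 3.40% on average without replicate 1. After *TwdlM* came *Cpr65Ea* (1899, 2939 and 2296 ppm) and *Lcp65Ag1* (1612, 2640 and 2215 ppm), both with a chitin-binding domain, and the Tweedle genes *TwdlB* (2142 ± 636 ppm) and *TwdlN* (2122 ± 553 ppm). Each of these 5 was lowest in replicate 1 and highest in replicate 2, and on this scale replicate 1 was the lowest library for 60.2% of all detected genes. The class was uneven: its median gene was at 28.5 ppm, *Cpr92A* was at 0.0541 ± 0.0937 ppm, and the pseudogene *Lcp65APsi* had no read.

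Genes known only by a CG number, without a name of their own, made up 5310 of the 12618 nuclear protein-coding genes listed. Of these 3782 were detected, and they held 14.8% ± 1.25 of the ppm, against 6414 detected of 7308 named genes with 67.1% ± 2.82. The 5 highest, picked out after their values were seen, were *CG13738* (1218, 1696 and 2068 ppm), *CG18649* (1257, 1572 and 1818 ppm), *CG13159* (1866, 1320 and 1323 ppm), *CG6770* (1104, 1528 and 1705 ppm) and *CG32266* (1103, 1500 and 1380 ppm). Of the 15 highest, 13 lay on chromosome arm 3L, which holds 21.0% of the CG-numbered genes, and 47 of the 100 highest did. Some were neighbours. *CG15212* (1305 ± 404 ppm) and *CG15213* (1066 ± 264 ppm) lie at 3L 5131545 to 5132127 and 5132796 to 5133220. *CG13051* (1252 ± 298 ppm), *CG13069* (847 ± 177 ppm) and *CG13067* (1307 ± 263 ppm) lie between 16264713 and 16271918 on 3L, in the BDGP6 assembly. All 5 of these neighbours were lowest in replicate 1, as were 60.2% of all detected genes.

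Markers of the main embryonic tissues were looked up in these whole embryos. Every one of the 15 marker lists had a detected gene. All lists except those of hemocytes, fat body, amnioserosa and hindgut with Malpighian tubule were detected in full. Of all protein-coding genes 80.8% were detected, so such lists could hardly lack a detected gene. The counts therefore do not check the label of whole embryo. In such bulk samples, more cells of a type and more RNA per cell cannot be told apart. Levels were highest in the somatic muscle list. It holds mostly genes of contractile proteins, and in whole embryos their reads cannot be assigned to somatic, visceral or heart muscle. The lists differ in the kind of gene, so their levels do not rank the tissues. *Mlc2*, a myosin light chain, was at 2236, 3066 and 2917 ppm, troponin T (*up*) at 1454, 2049 and 1857 ppm, and the myosin heavy chain *Mhc* at 657, 1058 and 953 ppm, while *Mef2*, the factor that activates these genes, was at 26.6, 30.8 and 30.7 ppm.

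The list for the visceral mesoderm, the gut musculature that the study is about, had all 8 genes detected. Its levels were lower than those of the contractile genes, but it holds mostly transcription factors. *Fas3*, an adhesion protein that also occurs in other epithelia, was at 114 ± 4.94 ppm, and *Hand*, a bHLH factor of founder cells and heart, at 30.4, 30.8 and 34.2 ppm. The FoxF factor *bin* was at 7.55, 10.3 and 9.63 ppm, *bap* at 10.5, 8.65 and 6.69 ppm and *org-1* at 7.25, 8.99 and 9.39 ppm. These 3 transcription factors overlapped in their ranges. *Alk*, a receptor tyrosine kinase that the study describes in the whole visceral mesoderm, was at 6.39, 7.88 and 8.39 ppm. Its ligand *jeb* was the lowest of the list, at 2.79, 4.04 and 5.62 ppm. The adjacent somatic mesoderm secretes this ligand, so *jeb* does not mark the visceral mesoderm itself. *Kah*, the Snail and Scratch family zinc finger factor of the study, was at 11.5, 12.1 and 12.1 ppm from 406, 376 and 375 reads and ranked 7061 of all genes. It lies on the minus strand of 3L at 582824 to 589274 and shares no exon base with another annotated gene.

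The nervous system and glia were detected at middle levels. The neuronal genes *nSyb* (65.3, 99.8 and 104 ppm) and *Appl* (63.0, 88.2 and 93.2 ppm) and the RNA-binding protein *elav* (37.8, 42.3 and 43.6 ppm) were lowest in replicate 1, and the sodium channel *para* was the lowest of the list at 9.50, 15.7 and 18.5 ppm. On this scale replicate 1 was the lowest library for 60.2% of all detected genes. Of 6 neuroblast genes 2 were lowest in replicate 1 and 3 highest. With the mitochondrial genome and rRNA left out of the total, 1 was lowest in replicate 1 and 5 were highest. The shares of all detected genes on that scale were 44.2% lowest and 37% highest. *mira*, an adaptor of asymmetric division, was at 63.0, 60.9 and 56.8 ppm, and *dpn* at 4.88, 4.46 and 4.58 ppm. Another gene shares 34.2% of the exon bases of *elav* and 59.3% of those of *dpn*. In glia the glutamate transporter *Eaat1* was at 77.5 ± 16.4 ppm and the homeobox factor *repo* at 18.3 ± 1.23 ppm.

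The collagen IV chains of basement membranes, *Col4a1* (705, 1066 and 1164 ppm) and *vkg* (403, 608 and 651 ppm), led the hemocyte list, whose crystal cell factor *lz* (0.690 ± 0.115 ppm) was under 1 ppm although the crystal cell enzyme *PPO1* was at 36.7 ± 4.00 ppm. In the trachea list *Osi6*, an Osiris family gene, was at 1844, 1566 and 1353 ppm and the chitin deacetylases *verm* and *serp* at 551 ± 67.6 and 248 ± 33.2 ppm, against 19.6 ± 1.65 ppm for *trh*, the factor that specifies the trachea. Epidermal *Ddc*, which makes dopamine for cuticle tanning, was at 53.5, 92.8 and 93.3 ppm and *grh* at 29.4 ± 3.91 ppm. In the gut, *Ance* was at 183 ± 2.17 ppm and the endoderm factor *GATAe* at 46.6 ± 2.74 ppm.

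Some defining markers were near 0. In the fat body list *apolpp*, the lipid carrier, was at 193, 216 and 211 ppm, but *Adh* was at 0.378 ± 0.084 ppm, *Fbp1* at 0.0474 ± 0.0607 and *Lsp2* had 1, 0 and 0 reads, 3 genes known for high larval expression. The exons of *Adh* and *Lsp2* lie for 93.9% and 84.6% within those of other genes. Urate oxidase (*Uro*), an enzyme of the Malpighian tubule, was at 0.141 ± 0.127 ppm and *zen* of the early amnioserosa at 0.183 ± 0.037 ppm. Among germ cell genes *gcl* (100 ± 12.4 ppm) and *tud* (43.3 ± 6.62 ppm) were well detected, while *vas* (3.06 ± 0.28 ppm), *nanos* (1.59 ± 0.24), *pgc* (1.51 ± 1.06) and *osk* (1.02 ± 0.32) were at the edge of detection, with 84.1% of the exon bases of *osk* and 46.9% of those of *pgc* shared with other genes.

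**Figure D3:**
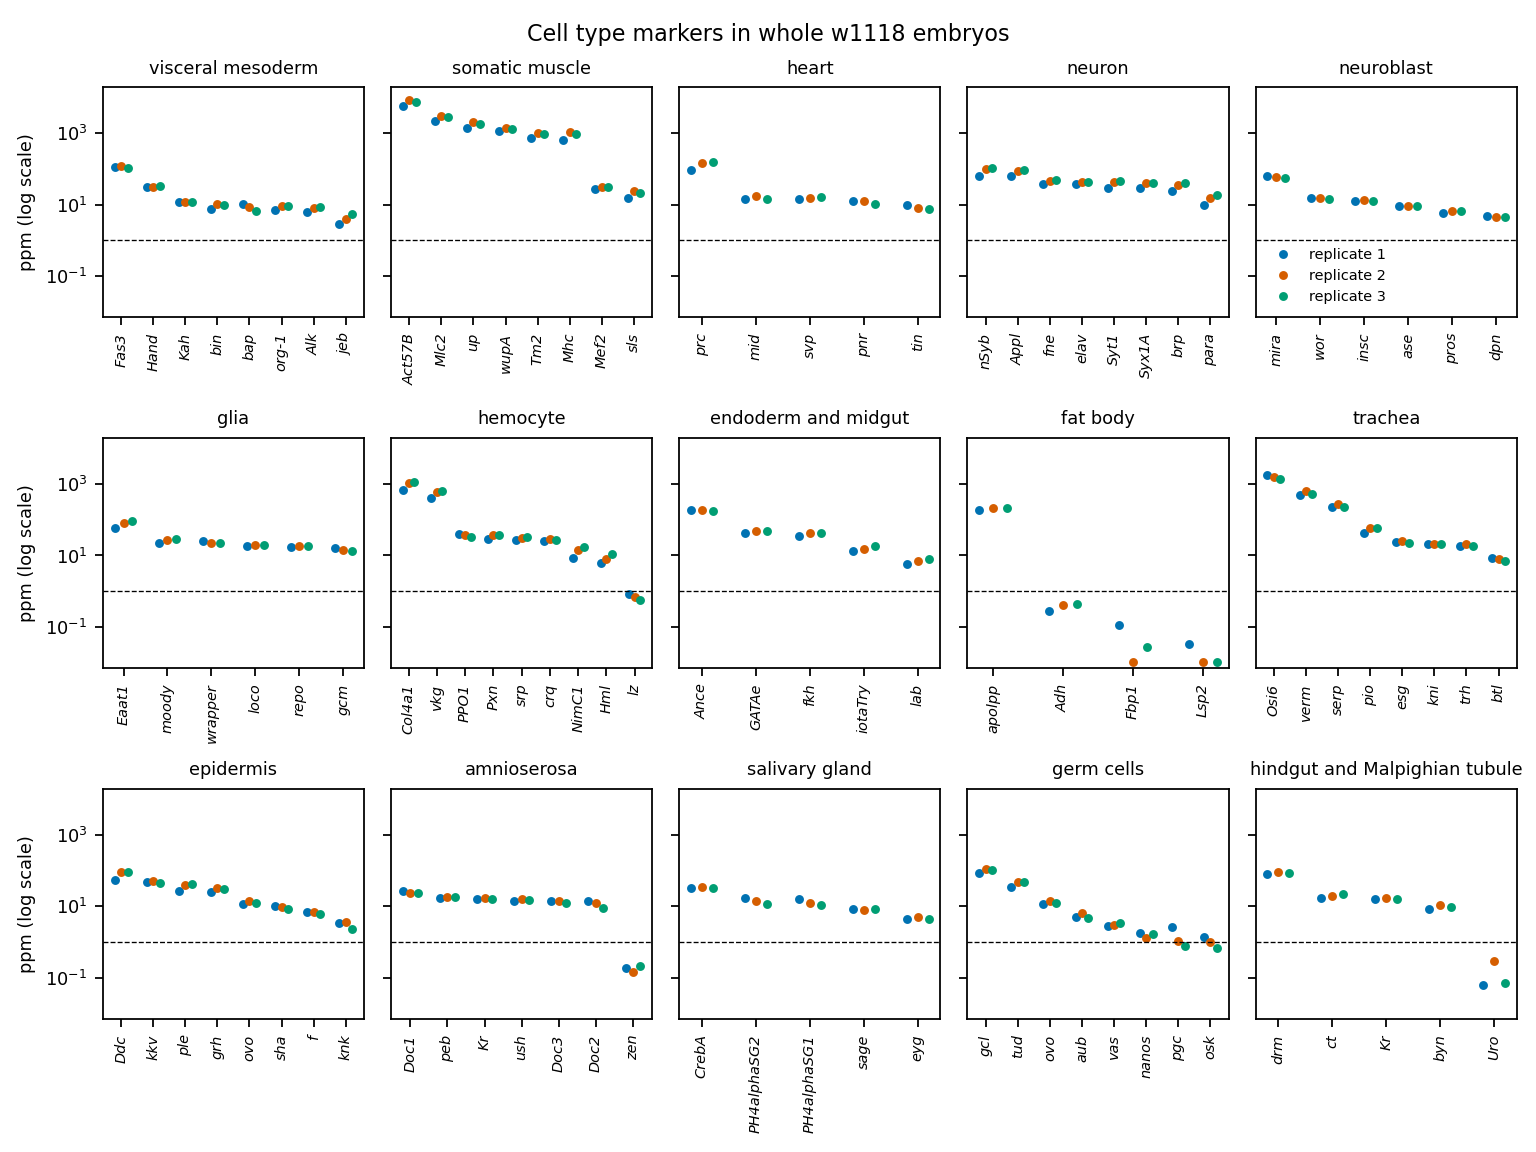
Level in ppm (vertical, log scale) of the markers of 15 tissues, with 1 point per w1118 library and the detection limit of 1 ppm as a broken line. Values of 0 are drawn at 0.01. The muscle, trachea and hemocyte lists reach 7272, 1588 and 978 ppm, and *lz*, *Adh*, *Fbp1*, *Lsp2*, *zen* and *Uro* lie under the limit.

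The Hox genes, which give body segments their identity, were all detected, as were 80.8% of all protein-coding genes. The abdominal and thoracic ones were higher than those of the head. *abd-A* was highest at 42.3, 48.7 and 47.5 ppm, then *Ubx* at 27.1, 31.7 and 29.9 ppm and *Antp* at 20.2, 22.7 and 21.1 ppm, 3 genes whose ranges did not overlap, although *Antp* shares 53.0% of its exon bases with another gene. *Abd-B* (17.9 ± 1.32 ppm) and *Scr* (17.6 ± 1.68 ppm) did not differ beyond their spread. *Dfd* (9.23 ± 1.38 ppm), *lab* (7.08 ± 1.12) and *pb* (3.95 ± 0.81) of the head and anterior midgut followed. The ratio of *abd-A* to *Ubx* was 1.56, 1.54 and 1.59, and that of *abd-A* to *pb* 13.8, 10.4 and 11.6.

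Of 8 listed genes that act when the first cells form, 3 were detected. This count and those that follow are to be read against the 80.8% of all protein-coding genes that were detected. *nullo* was absent and *bnk* (0.651 ± 0.221 ppm), *Z600* (0.496 ± 0.352), *term* (0.142 ± 0.0985) and *Elba1* (0.0989 ± 0.171) were under 1 ppm, while *halo* was at 7.16, 4.72 and 2.82 ppm, *slam* at 5.92 ± 1.19 ppm and *Nin* at 20.0 ± 2.14 ppm. Of 14 gap and pair-rule genes 13 were detected, with a median of 10.7 ppm against 10.9 ppm for all genes. They ranged from low levels, with *prd* at 0.683 ± 0.330 ppm, *ftz* at 2.42 ± 0.64 and *eve* at 3.71 ± 0.76, to *slp1* (43.9 ± 3.54 ppm) and *hry* (39.4 ± 5.84 ppm), which are used again later. Segment polarity genes, which keep acting within segments, were all 9 detected, between *inv* at 7.18 ± 0.55 ppm and *ci* at 49.2 ± 1.27 ppm. Of 17 maternal axis genes 15 were detected, led by *cact* (105 ± 11.9 ppm) and *Tl* (69.1 ± 4.90 ppm), which also serve in immunity and muscle, while *bcd*, the anterior determinant, was at 7.37, 12.5 and 7.60 ppm and the eggshell proteases *ndl* and *gd* at 0.249 ± 0.029 and 0.106 ± 0.031 ppm.

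Detected counts of the next lists are again to be read against the 80.8% of all protein-coding genes. Division genes were detected throughout, the mitotic cyclins *CycB* (193 ± 10.8 ppm) and *CycA* (127 ± 10.4 ppm) highest and *Cdk2* lowest (16.0 ± 3.36 ppm). Notch response genes of the Enhancer of split and Bearded families were all 15 detected, from *Tom* at 357, 335 and 277 ppm to *E(spl)m6-BFM* at 18.9 ± 1.75 ppm. Of the histones the table lists only 11 of 124 genes in the later annotation, and the variants that are not tied to DNA replication were the high ones: *His4r* (1501, 1142 and 1104 ppm), *His3.3B* (697 ± 17.0 ppm) and *His2Av* (662 ± 34.3 ppm). *BigH1*, the linker histone of the early embryo, was at 7.88 ± 0.54 ppm.

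Of genes with a DNA-binding or cold shock domain in the table, the chromatin proteins *HmgD* (744, 704 and 630 ppm) and *HmgZ* (510, 523 and 517 ppm) were the most abundant. Next came factors of general stress and growth responses, *Xbp1* (294 ± 6.03 ppm) of the unfolded protein response, *crc* (255 ± 35.1 ppm), the ATF4 homologue, which shares 73.5% of its exon bases with another gene, and *REPTOR-BP* (236 ± 28.2 ppm), with the RNA-binding protein *yps* (230 ± 6.64 ppm). *emc*, the inhibitor of bHLH factors, was at 198, 200 and 198 ppm. *lin-28* (126 ± 14.1 ppm), *ftz-f1* (108 ± 19.8 ppm) and *slbo* (100 ± 11.0 ppm) completed the first 10, and no Hox gene or muscle factor was among them. No domain is assigned to 61.6% of protein-coding genes, so the ranking covers labelled factors only.

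Among lincRNA genes *lncRNA:CR42862* was highest, at 877, 1247 and 1351 ppm over 5485 bases. *lncRNA:marge* (236, 221 and 205 ppm), *lncRNA:roX1* (138, 158 and 152 ppm), *CR34335* (148 ± 17.6 ppm) and *lncRNA:CR42491* (130 ± 5.46 ppm) followed, and *lncRNA:roX1* and *CR34335* did not differ beyond their spread. *lncRNA:roX1* coats the male X chromosome together with *lncRNA:roX2*, which was 6.47-fold, 9.08-fold and 8.27-fold lower. The highest nuclear rRNA gene was *CR41535*, on an unplaced scaffold, at 498, 672 and 516 ppm, against 106103 ppm for *mt:lrRNA*. The first snoRNA, *snoRNA:Me28S-A1322*, was at 97.3 ± 12.1 ppm, the first hairpin, *mir-2a-2*, at 114 ± 8.88 ppm over 72 bases, the first snRNA, *snRNA:U12*, at 21.6 ± 4.90 ppm, and the first pseudogene, *28SrRNA-Psi:CR45860*, at 106 ± 15.5 ppm. Reads on genes this short, or lying inside a host gene, cannot be separated from those of longer transcripts.

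Families tied to adult life or to infection were mostly low. Their detected counts, here and in the next paragraph, are to be read against the 80.8% of all protein-coding genes. None of 10 chorion and vitelline membrane genes of the eggshell and none of 27 accessory gland and seminal fluid genes was detected, the highest being *Vm34Ca* (0.899 ± 0.353 ppm) and *Sfp78E* (0.839 ± 0.274 ppm). Chemoreceptors were nearly as low, with 5 of 50 odorant receptors, 3 of 44 gustatory receptors and 9 of 52 ionotropic receptors detected, led by *Or71a* (7.39, 8.75 and 6.82 ppm), *Gr59e* (2.39 ± 0.29 ppm) and *Ir87a* (4.78 ± 0.24 ppm). *Or43a*, *Or69a*, *Gr22f*, *Ir64a* and *Ir94h* had no read. Of 40 odorant binding proteins, by contrast, 22 were detected, with *Obp99a* at 536, 560 and 535 ppm, and *Obp44a* at 251 ± 45.5 ppm.

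Of 17 antimicrobial peptide genes 4 were detected, and the highest were *Drsl4* (3.72, 3.94 and 2.83 ppm) and *Drs* (3.41 ± 0.93 ppm), while *CecB* was absent. Larval serum proteins were represented by *Lsp1gamma* alone (2.79, 3.81 and 3.51 ppm), yolk proteins by *Yp3* (2.33 ± 0.31 ppm), glue proteins by *Sgs7* (7.79 ± 2.11 ppm) and *Sgs8* (6.85 ± 0.66 ppm). Of 19 testis and sperm genes 4 were detected, led by *Mst85C* (25.5 ± 3.63 ppm). The heat shock family split in a different way, since the constitutive chaperones *Hsc70-4* (1130, 1170 and 1116 ppm), *Hsp60A* (273 ± 21.3 ppm) and *Hsc70-3* (272 ± 8.77 ppm) were high and the inducible *Hsp70Ba* had 0.0736 ± 0.0641 ppm. Reads of *Hsp70Ba* could be split with similar copies or lost in counting, so its level is uncertain. In contrast to these families, all 27 Jonah proteases and trypsins, digestive enzymes of the larval gut, were detected, from *Jon65Aiv* at 204, 287 and 307 ppm down to *Jon66Cii* at 1.43 ± 0.99 ppm, as were 34 of 35 glutathione S-transferases with *GstD1* at 278 ± 13.6 ppm.

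**Figure D4:**
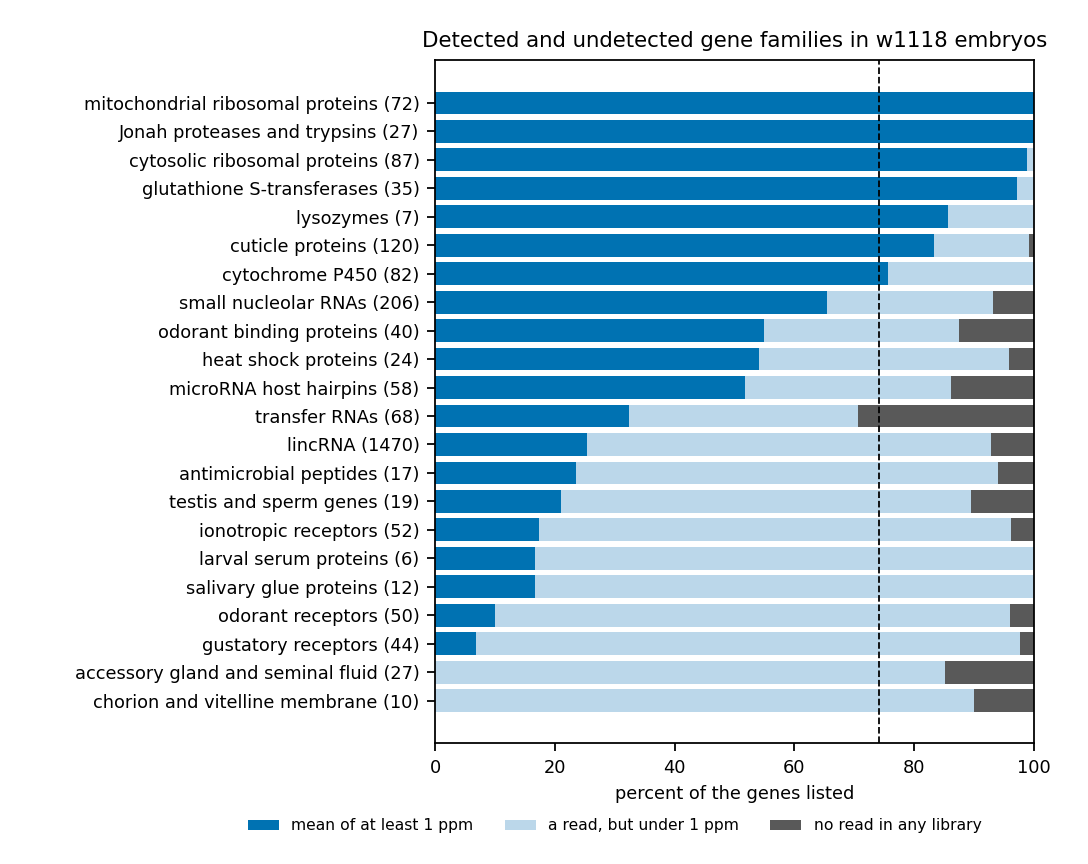
Percent of the listed genes of 22 families (horizontal) that reached a mean of 1 ppm, had a read but stayed under it, or had no read, with the number listed in brackets and the 74.1% of all genes as a broken line. Housekeeping, detoxification and digestive families lie at the top, and chemoreceptor, seminal and eggshell families at the bottom.

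Of the eye pigment genes, *white* itself (*w*) had 5, 2 and 5 reads and a mean of 0.147 ppm. Its partner transporters *st* and *bw* were at 7.70, 7.92 and 8.39 ppm and at 11.2 ± 0.53 ppm. The ommochrome enzyme gene *cn* had 1, 0 and 0 reads, so a level near 0 was not particular to *w*, and the mutation of the strain was not tested by these values.

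The 309 absent genes comprised 145 protein-coding, 105 lincRNA, 20 tRNA, 14 snoRNA, 11 pseudogene, 8 microRNA hairpin, 4 snRNA and 2 rRNA genes. Absence covers listed genes only: the annotation used for comparison has 24254 genes, of which 14363 were matched to the table, and genes outside the table were not analysed here. Protein-coding genes without a read were short and mostly unnamed. Their median length was 902 bases against 1819 for all protein-coding genes, and 65.5% had only a CG number, against 42.1% of all and 23.3% of those at 100 ppm or more. For a short gene the same number of transcripts gives fewer reads, so a count of 0 limits its level less. The limit of 1 ppm cut through a continuous range. Just inside it were *CG5762*, *CCDC151*, *lncRNA:CR44769*, *qin* and *BaraB*, between 1.001 and 1.004 ppm, and just outside *Lcp9*, *Wnt10* and *CG14022* at 0.996 ppm and *CG11693* and *Acbp4* at 0.994 ppm.

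By chromosome, the detected share of all listed genes was 76.1% on X, 69.7% on 2L, 74.3% on 2R, 73.7% on 3L, 76.6% on 3R and 87.2% on the small chromosome 4. Of protein-coding genes 81.2% were detected on X and between 78.0% and 82.5% on the large autosome arms, but 76 of 79 (96.2%) on chromosome 4, where the median detected gene was at 50.2 ppm against 20.2 to 22.5 ppm elsewhere. Of the genes listed on the male-specific Y chromosome only *FDY* was detected, at 3.60, 2.61 and 2.96 ppm. The sperm dynein gene *kl-5* had no read over 13680 bases. Of 23 protein-coding Y genes in the later annotation only 4 were listed, so most of the chromosome was not surveyed. These are counts of genes, which are not replicates, and were not tested.

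The spread between libraries was small for most genes. The median CV over detected genes was 11.1%, falling from 25.7% at 1 to 3 ppm to 6.73% above 1000 ppm, where counting error alone gives 0.585%. The highest library exceeded the lowest at least 1.5-fold for 2108 genes (19.4%) and at least 2-fold for 538 (4.96%). A chi-square test of homogeneity of the reads of each gene against the library totals, with Benjamini-Hochberg adjustment, called 5613 of 10941 genes with a mean of at least 10 reads (51.3%). It compares 3 libraries, not conditions, and sets their differences against counting error only, with reads taken as independent, so that small differences of abundant genes are called as well. Without replicate 1 the count fell to 1890, without replicate 2 or 3 it was 5004 and 4396.

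The 10 genes with the largest CV among those with a mean of at least 100 reads did not all differ in the same library. *CG17715* (0.718, 1.01 and 4.15 ppm) and *CG31809* (5.04, 4.75 and 19.9 ppm) were high in replicate 3. The pseudogene *28SrRNA-Psi:CR40596* (3.58, 13.8 and 2.57 ppm), the glutathione synthetase gene *Gss2* (3.28, 11.1 and 4.41 ppm) and *CG12519* (39.6, 126 and 72.4 ppm) were high in replicate 2. *CG18180* (20.7, 12.8 and 6.19 ppm), *lncRNA:CR43887* (27.7, 13.8 and 10.8 ppm), *CG3819* (18.1, 11.0 and 6.30 ppm) and *Osi5* (14.4, 8.86 and 5.74 ppm) were high in replicate 1, and *eIF4B* (13.6, 15.8 and 5.94 ppm) was low in replicate 3.

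Replicate 1 differed from the others by gene group. Because its high mitochondrial share lowers every other ppm, the order of the libraries was taken with the mitochondrial genome and rRNA left out of the total. On that scale replicate 1 was the lowest library for 44.2% of the 10807 detected genes and the highest for 37%. It was the lowest for all 8 somatic muscle and all 8 neuron markers and for 11 of 12 glycolysis genes and 69 of 100 cuticle genes. It was also the lowest for 7 of 8 Hox genes. None of the 8 was called by the homogeneity test on that scale, which called 51.3% of all genes tested. The median ratio of replicate 1 to the mean of the libraries was 0.964 for Hox genes. It was the highest for 14 of 15 Enhancer of split and Bearded genes, 12 of 16 cell cycle genes, 8 of 9 segment polarity genes, 29 of 34 proteasome genes and 57 of 72 mitochondrial ribosomal proteins. The median ratio of replicate 1 to the mean of the 3 libraries was 0.806 for neuron markers, 0.862 for muscle and 1.14 for Enhancer of split and Bearded genes, against 0.990 for all detected genes. Replicate 3 was at a median of 0.863 for the last group and 1.14 for neuron markers, and replicate 2 between the others for both. Digestive genes shifted further, although *Jon65Aiv*, the highest of them, was itself lowest in replicate 1. The median ratio of the 27 Jonah proteases and trypsins was 1.32 in replicate 1, 0.955 in replicate 2 and 0.795 in replicate 3. For 6 lysozymes it was 1.36, 0.855 and 0.775. The homogeneity test called 22 of the 27 (81.5%) and 1 of the 6 lysozymes (16.7%), against 51.3% of all genes tested. The collection window ran from 5 to 16 h, and whether the pools differ in age was not tested.

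**Figure D5:**
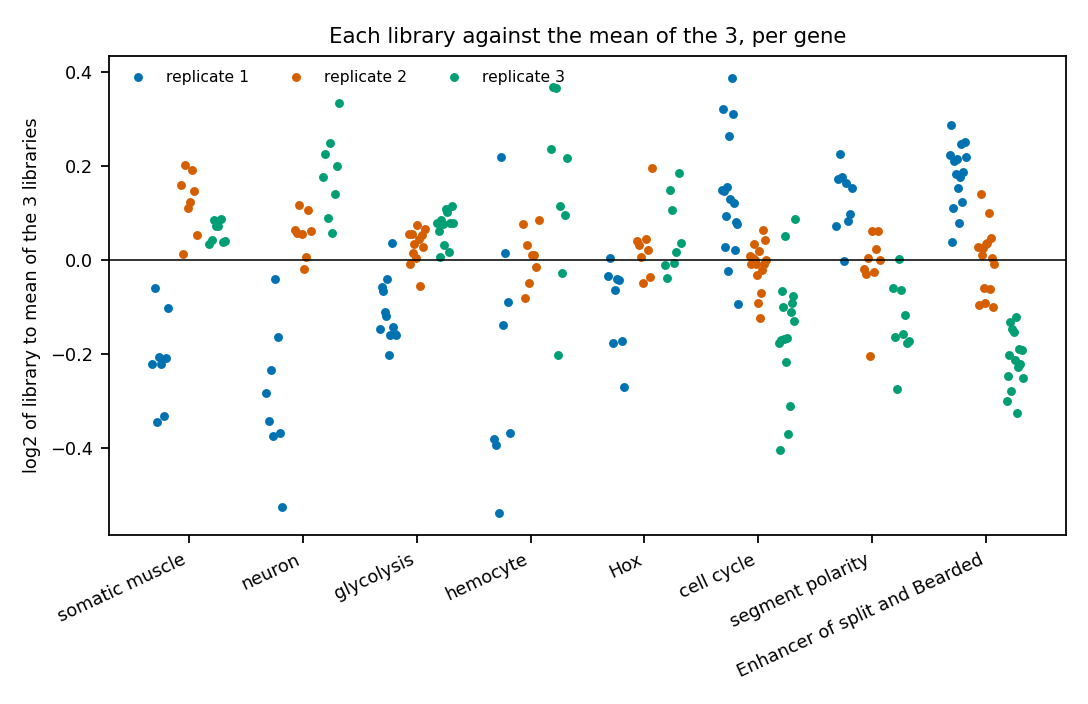
Log2 of the level in each library relative to the mean of the 3 (vertical) for the detected genes of 8 gene groups, 1 point per gene and library, with the mitochondrial genome and rRNA left out of the total. Replicate 1 lies below 0 for every muscle and neuron marker and above 0 for every Enhancer of split and Bearded gene.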

How the data were processed

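RNA of 3 w1118 libraries was analysed from the table of the *Kah*-delATG comparison. The members and gene lists were chosen with earlier results of these data known. Per the submitters' processing notes, the authors aligned reads with HISAT2 2.0.5, counted them with featureCounts 1.5.0-p3 and normalized with DESeq2 1.20.0 on BDGP6. Library selection and strand setting are not given in the sources used here. The deposited signal of a gene is its reads divided by the size factor of the library, and division by the value of 1 read gave whole reads for 100% of the values (tolerance 0.001). The second table holds the same w1118 reads for all 14306 genes in both. The 6 mutant columns and the authors' fold changes and p-values were not used.

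Values were divided by the deposited exon length and scaled to 1000000, which cancels the size factor. Lengths equal the exon union of a later annotation for 97.6% of matched genes. Symbols were updated by gene identifier for 14363 of 14631 genes. The genes named are the 25 highest nuclear ones, the highest of each class and list, 10 with DNA-binding domains, 10 most variable, those nearest 1 ppm, and *Kah*, *Alk*, *jeb* and *w*. The highest genes other than ribosomal proteins, those with CG numbers and the minor ribosomal copies were named after their values were seen. The column for transcription factor families holds protein domains of all kinds, so DNA-binding domains were picked from it. Family patterns were corrected for wrong matches after the table was read, and no list was tested. The homogeneity test was checked on simulated reads. Python 3.11.15, pandas 2.3.3, numpy 2.4.6, scipy 1.17.1 and matplotlib 3.10.9 were used. Intervals, where 3 reads are given as a limit, cover counting error only.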

Additional observations from a re-analysis of the deposited data

How the results depend on the processing

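No paired analysis was possible because only 1 genotype is described and nothing is compared between groups. The number of detected genes stayed within 1.5 times under all settings tried: 10289 without division by gene length, 11028 with the mitochondrial genome and rRNA genes left out of the total, 10638 without genes under 200 bases, 10402 with 1 ppm required in every library, 11629 at 0.5 ppm, 10941 at a mean of 10 reads and 14322 with any read. The w1118 columns of the other table moved no value by more than 1 SD. Without division by length the shares became 0.615% for lincRNA, 13.9% for ribosomal proteins, 12.4% for the mitochondrial genome and 1.52% for cuticle proteins, and the detected shares 72.6% on X, 67.1% on 2L, 69.5% on 2R, 70.1% on 3L, 72.6% on 3R and 82.6% on chromosome 4. Without mitochondrial genome and rRNA the shares were 99.3% for protein-coding genes, 0.496% for lincRNA and 31.8% for ribosomal proteins, and the detected shares 77.2% on X, 71.3% on 2L, 76.0% on 2R, 75.3% on 3L, 78.2% on 3R and 88.1% on chromosome 4. Without genes under 200 bases 2L was at 70.4% and 2R at 75.2%. With each replicate left out the detected share was 75.6% to 75.9% on X, 69.6% to 70.2% on 2L and 86.2% to 87.2% on chromosome 4, and the number of genes that differed between libraries 1890 to 5004. That number was 5618 with totals without mitochondrial genome and rRNA, 5575 without the filter on low reads and 5408 with the size factors. Dividing by length mattered most for short and long genes: undivided, *RpL41* was at 1919 parts per 1000000 and *Alk* at 43.8. At 1 to 3 ppm a gene has a median of 21.7 reads, so levels there are set by counting.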

Other observations

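Protein domains that the table assigns give a further description of what the embryo expresses. All 57 genes with an I-set immunoglobulin domain, found in adhesion proteins, and all 42 with a tyrosine kinase domain (Pkinase_Tyr) were detected, as were 48 of 49 HLH factors, 82 of 86 zf-AD zinc finger genes and 67 of 79 homeobox genes (84.8%), where the share over all protein-coding genes was 80.8%. Genes with a trypsin domain were detected for 138 of 213 (64.8%), with a median of 3.05 ppm, led by *Try29F*. For comparison, 92 of 105 genes with an RRM_1 RNA-binding domain were detected, at a median of 36.5 ppm, led by *pAbp*, and 34 of 35 DEAD box helicases, led by *eIF4A*. The median over all 79 homeobox genes listed was 7.18 ppm, against 15.1 ppm over all protein-coding genes, and *abd-A* was the highest. These are counts over genes and were not tested.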
